A study of Mus musculus with 9 samples.

Results

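The genes described here are 40 genes of the cell division cycle and of DNA replication, from the helicase that opens replication origins to the motor proteins of the mitotic spindle. They were listed by name for their function, not by a measured value, though earlier results of these data were known when they were chosen. All 40 had a row among the 43548 gene identifiers of the expression table. Expression was measured by RNAseq in the heads of E14.5 mouse embryos from a cross of Msx2-Cre mice with CAGF8 mice, which carry Fgf8b under the CAG promoter at ROSA26 behind a Lox-Stop-Lox cassette. In MCAGF8 embryos Msx2-Cre removes the stop and Fgf8b is expressed in the surface ectoderm of the head, while the skull mesenchyme itself does not express this Cre. Control embryos lacked Cre but inherited the same unactivated CAGF8 allele, although the labels call them wildtype, and the strain is given as mixed. Both kinds of embryo gave a cranial vault, the tissue between skin and brain after the skin was peeled off, and the controls also gave the cartilaginous cranial base, taken once the brain was out. Each group had 3 libraries, and each library was a pool of 3 of the 9 tissue samples of its group. Whether pools of control vault and control base came from the same embryos is not stated, and every error given below is the spread between pools.

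The cell cycle is driven by cyclin-dependent kinases, which are active only with a cyclin bound. D and E cyclins act in G1, where growth factors such as FGFs feed in, and lead to release of E2F transcription factors from the retinoblastoma proteins. E2F targets include the MCM helicase, its loading factors and the enzymes that make nucleotides. Most mitotic genes are transcribed later, in G2, through the MuvB complex with FOXM1. CDK inhibitors of the CIP/KIP family restrain the kinases and rise when cells leave the cycle, as osteoblasts and hypertrophic chondrocytes do.

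Expression was given as FPKM, fragments scaled to transcript length and to library size, so that levels may be compared between genes of different length. Differences were computed on the scale log2(FPKM + 1) and tested with limma over the 18714 genes with a mean of at least 0.5 FPKM, which included all 40 genes. A gene is named as called where its unadjusted p was under 0.05 and its adjusted p, over all tested genes, under 0.1. In bulk tissue, a lower value may mean fewer dividing cells or less RNA in each of them, and the measurements cannot tell these apart.

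The libraries of a group were not alike. Control base replicate 2 correlated with the other control base libraries at r = 0.904 to 0.927, and with the vault libraries at 0.913 to 0.952, across the tested genes. A sum over 15 cartilage genes, all above 1 FPKM in some library, was 11379 FPKM in control base replicate 2 but 1120 and 1680 FPKM in replicates 1 and 3, below the 2347 to 5827 FPKM of every vault library, so this sum was not higher in those control base libraries than in the vaults. A sum over 5 genes of hypertrophic cartilage was 284, 884 and 289 FPKM in the control base, 154 to 288 FPKM in the control vault and 95.9 to 131 FPKM in the MCAGF8 vault. A sum over 12 skeletal muscle genes ran from 1786 to 11333 FPKM in the control base, from 942 to 5886 FPKM in the control vault and from 53.6 to 215 FPKM in the MCAGF8 vault. Sums over 10 osteoblast genes were 1288 to 3146 FPKM in the control vault and 137 to 270 FPKM in the MCAGF8 vault, where Bglap2 was listed at 0 in all libraries, and sums over 8 epidermal genes were 14.5 to 107 FPKM and 384 to 1031 FPKM, respectively. Erythroid sums, over 10 genes, were 12616 to 17858 FPKM in the control vault, 10439 to 16409 FPKM in the MCAGF8 vault and 5059 to 11090 FPKM in the control base. Sums over 7 genes of progenitor mesenchyme were 795 to 877 FPKM in the control vault, 1048 to 1283 FPKM in the MCAGF8 vault and 347 to 485 FPKM in the control base, and those over 7 endothelial genes were 278 to 320.4, 322 to 448 and 233 to 268 FPKM, both without overlap between the groups. Sums over 7 neuronal genes were 317 to 1037 FPKM in the control base and 115 to 207 FPKM in the vaults. Those over 7 neural progenitor genes were 12.7 to 116 FPKM in the control vault, 6.47 to 8.59 FPKM in the MCAGF8 vault and 105 to 190 FPKM in the control base, without overlap between the vaults. In the same order, sums over 8 macrophage genes were 258 to 332, 253 to 394 and 119 to 266 FPKM. Sums over 5 osteoclast genes were 184 to 313, 126 to 217 and 60.8 to 161 FPKM. The part of these other cell types in the differences of the cell cycle genes was not tested.

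The 40 genes were expressed in every library. Their lowest group mean was 3.59 ± 1.00 FPKM (SD, n = 3), for Cenpe in the control vault, and their highest was 1833 ± 317 FPKM, for Cdkn1c in the control vault. Summed over the 40 genes, expression was 5025 ± 571 FPKM in the control vault, 3973 ± 611 FPKM in the MCAGF8 vault and 4498 ± 873 FPKM in the control base. The median of the 40 genes on the log2 scale was 5.75 to 5.93 in the control vault libraries and 5.43 to 5.69 in the MCAGF8 vault libraries, so the medians of these groups did not overlap, while the control base, at 5.58 to 5.86, lay across both.

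**Figure D1:**
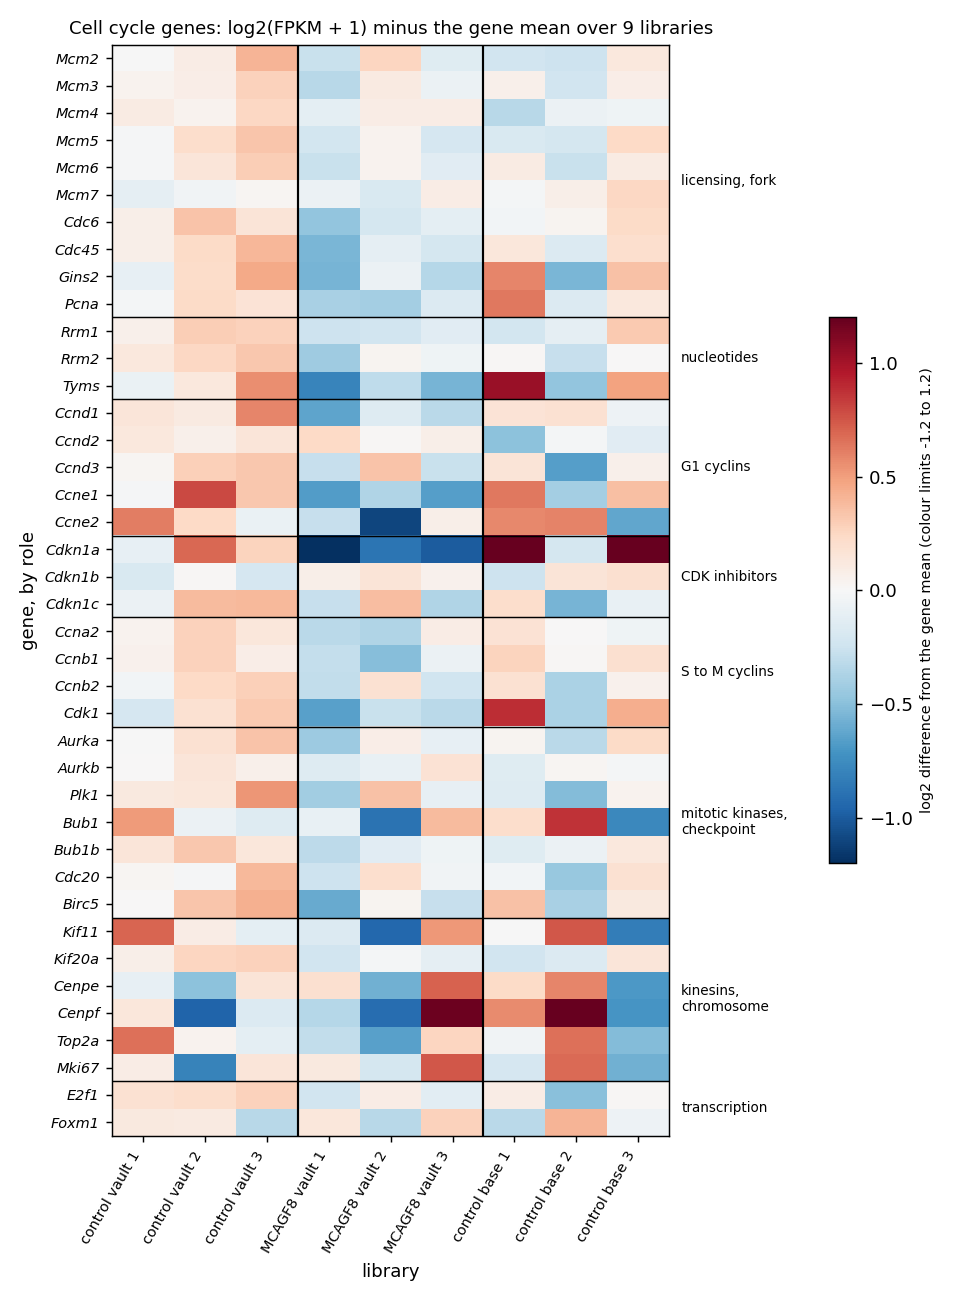
Expression of the 40 cell cycle genes in the 9 libraries, as log2(FPKM + 1) minus the mean of each gene over all libraries, with genes grouped by role on the vertical axis and libraries on the horizontal axis. Red is above and blue below the gene's mean, colours are limited at 1.2 in either direction, and Cdkn1a stands out as low in the 3 MCAGF8 vault libraries and high in control base replicates 1 and 3.

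In the MCAGF8 vault against the control vault, most cell cycle genes had a lower mean, by small amounts. The mean was lower for 35 of the 40 genes, against 51.3% of all tested genes, and the median difference of the 40 was -0.32 on the log2 scale, against -0.0089 for all tested genes. None of the 40 was called by limma, where 0.604% of all tested genes were called. At an unadjusted p under 0.05 there were 8 of the 40, all lower, with a background of 6.34%. Without moderation of the variances, 11 of the 40 were at an unadjusted p under 0.05, against 6.54% of all tested genes. That fit called 0 of the 18714 tested genes, so the 0 called among the 40 says nothing about them. The 8 became 13 with quantile normalization (7.4% of all tested genes) and 4 with a sum of 1000000 (6.67%). With the libraries of both vaults alone they became 16 (13.2%), and with replicate number as a block 4 (4.99%). Without MCAGF8 vault replicate 1 they became 3 (4.25%). The libraries did not overlap between groups for 14 genes that were lower, against 9.35% of all tested genes, and for 1 gene that was higher, Cdkn1b, against 9.9%. The 14 became 26 without MCAGF8 vault replicate 2 and 22 without control vault replicate 1. Leaving out a library can only keep or raise such a count, and the share over all genes was not computed for it. Without control base replicate 2 in the fit Cdkn1a was called, as were 1.47% of all genes then tested. The 5 genes with a higher mean were Mki67, Cenpf, Cenpe, Cdkn1b and Foxm1. When every library was rescaled to a sum of 1000000 FPKM, the median of all tested genes moved to 0.13 and that of the 40 to -0.15, so that 30 genes had a lower mean, while the distance between both medians was -0.29 against -0.31 as deposited.

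In the control base against the control vault, the 40 genes had a smaller median difference. The mean was lower in the base for 28 genes, against 41.0% of all tested genes, and the median difference was -0.17, with 0.067 for all tested genes. None of the 40 was called, with a background of 3.06%, and none was at an unadjusted p under 0.05, with a background of 12.8%. Without moderation, 2 were at an unadjusted p under 0.05, with a background of 12.2%, and 0 were called, with a background of 1.37%. Other scalings gave 5 at an unadjusted p under 0.05 with quantile normalization (13.8% of all tested genes), 4 with a sum of 1000000 (12.2%), 7 with a common median (13.9%) and 11 with a length and GC trend removed (18.9%), all lower in the base. The libraries did not overlap for 6 genes that were lower in the base, with a background of 6.69%, and for 0 that were higher, with a background of 8.86%. Plk1, E2f1, Ccnd2, Rrm2, Mcm4 and Bub1b were the 6, named after their values were seen. Under those scalings the 6 became 11, 10, 10 and 14, in the same order, and the shares over all genes were not computed. The 6 became 12 without control base replicate 3 and 14 without control vault replicate 1, and 2 genes were higher without overlap when control base replicate 1, 2 or 3 was left out. Here too a library left out can only keep or raise the counts, and shares over all genes were not computed. Without control base replicate 2, Cdkn1a was called as higher in the base, as were 7.17% of all genes then tested in either direction.

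In the MCAGF8 vault against the control base, 1 of the 40 genes was called, Cdkn1a, which was lower, with a background of 8.39%. An unadjusted p under 0.05 was found for 7, all lower, with a background of 19.6%. Without moderation it was found for 5, with a background of 18.1%, and 0 were called, with a background of 4.64%. The mean was lower for 27 genes, against 56.3% of all tested genes, and the median difference was -0.14 against -0.066 for all tested genes. The libraries did not overlap for 4 genes that were lower, Cdkn1a, Ccnd1, Ccnb1 and Cdc6, with a background of 13.0%, and for 1 that was higher, Ccnd2, with a background of 8.91%. The 4 became 7 without MCAGF8 vault replicate 2, 8 without MCAGF8 vault replicate 3 and 12 without control base replicate 2. Without MCAGF8 vault replicate 1 there were 2 higher genes without overlap. In that fit 0 of the 40 were called, with a background of 3.13%. Counts without overlap can only stay or rise when a library is left out, and their shares over all genes were not computed. The comparisons share libraries, since each group enters 2 of the 3, so they are not independent of each other. Rescaling to a sum of 1000000 FPKM turned the median difference to 0.072 and left 16 genes with a lower mean, while the median of all tested genes moved to 0.11. Without control base replicate 2, 7 of the 40 were called, all lower in the MCAGF8 vault: Ccne1, Cdk1, Cdkn1a, Tyms, Pcna, Gins2 and Ccnb1. In that fit 24.5% of all tested genes were called.

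**Figure D2:**
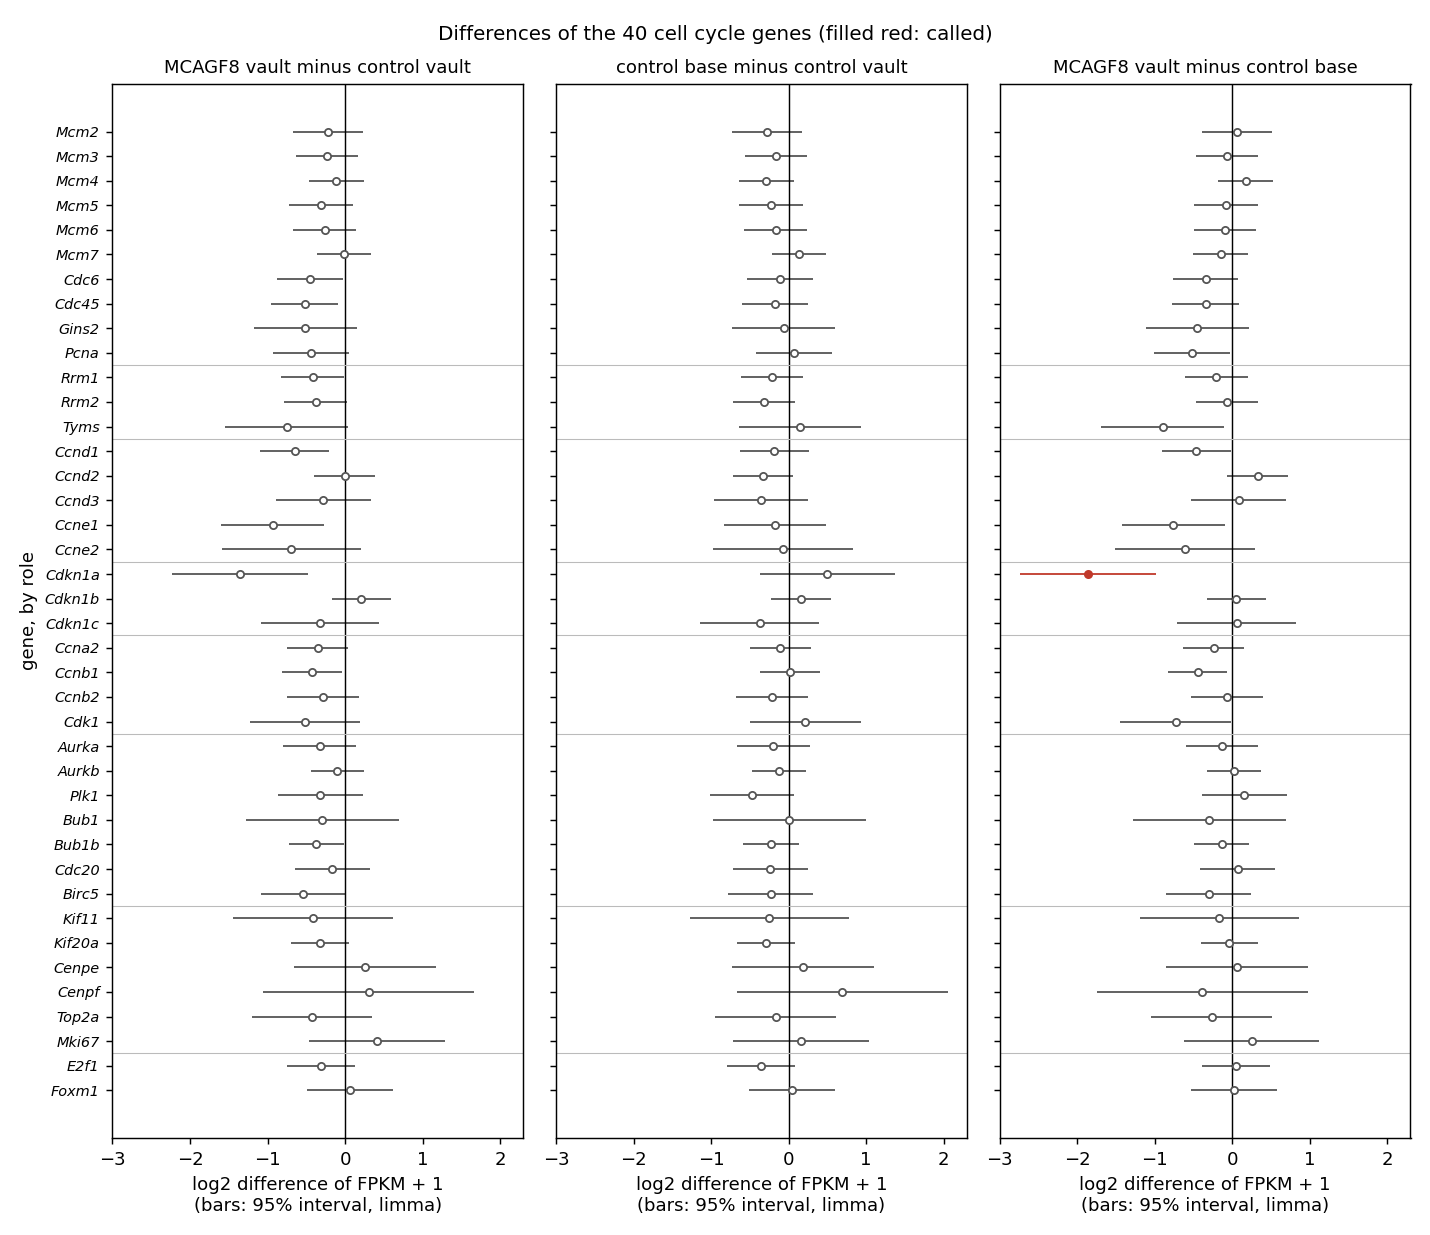
Log2 differences of the 40 genes in the 3 comparisons, on the scale log2(FPKM + 1), with bars for the 95% interval of the limma fit. The filled red point is Cdkn1a in the right panel, and in the left panel 35 of 40 points lie below 0 although their intervals mostly cross it.

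The 10 genes of origin licensing and of the replication fork were lower in mean in the MCAGF8 vault than in the control vault in every case. Of all tested genes, 51.3% were lower. The median difference of the 10 was -0.29, and 0 of them were called, with a background of 0.604%. Their summed expression was 793 ± 82.6 FPKM in the control vault, 639 ± 63.4 FPKM in the MCAGF8 vault and 746 ± 119 FPKM in the control base. Mcm2, on chromosome 6 at 88883474 to 88898780 (GRCm38), encodes 1 subunit of the MCM2-7 helicase that is loaded at origins in G1. Mcm2 measured 60.6, 64.5 and 80.9 FPKM in the control vault, 50.3, 72.7 and 54.6 FPKM in the MCAGF8 vault and 51.7, 51.0 and 66.3 FPKM in the control base. MCAGF8 replicate 2 lay among the control vault libraries and the groups overlapped, with a difference of -0.22 (95% interval -0.67 to 0.24). The other MCM genes ran from -0.31 for Mcm5 to -0.014 for Mcm7 in this comparison, with Mcm6, Mcm3 and Mcm4 between, and every interval included 0.

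Pcna, on chromosome 2 at 132249162 to 132253314, encodes the sliding clamp that holds DNA polymerases on the template. Its levels were 136, 162 and 155 FPKM in the control vault, 106, 104 and 124 FPKM in the MCAGF8 vault and 216, 123 and 151 FPKM in the control base. All MCAGF8 vault libraries were below all control vault libraries, whereas control base replicate 2 was level with the highest MCAGF8 library. The difference between the vaults was -0.44 (SE 0.22, adjusted p = 0.869, limma), and that between MCAGF8 vault and control base was -0.52 (SE 0.22, adjusted p = 0.234).

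Cdc6, which loads the helicase onto origins, and Cdc45, which joins it into the active helicase, were named after their values were seen, as the licensing genes at an unadjusted p under 0.05. Cdc45 measured 25.9, 29.0 and 32.8 FPKM in the control vault, 16.6, 22.8 and 21.2 FPKM in the MCAGF8 vault and 27.1, 21.8 and 28.5 FPKM in the control base. Its vault libraries did not overlap, with a difference of -0.52 (SE 0.19, adjusted p = 0.571). Cdc6 was at 14.0 ± 1.45 FPKM in the control vault and 9.998 ± 1.37 FPKM in the MCAGF8 vault, also without overlap, with a difference of -0.45 (adjusted p = 0.717). Gins2, another subunit of the active helicase, gave -0.52 with overlapping libraries and an interval of -1.18 to 0.15.

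The 3 genes of nucleotide supply were all lower in mean in the MCAGF8 vault than in the control vault, against 51.3% of all tested genes. None of the 3 overlapped between these groups, where 9.35% of all tested genes were lower without overlap. Of the 3, 0 were called, with a background of 0.604%. Tyms, on chromosome 5 at 30058202 to 30073617, encodes thymidylate synthase, which makes dTMP for DNA synthesis. It measured 129, 149 and 201 FPKM in the control vault, 78.3, 110.1 and 91.8 FPKM in the MCAGF8 vault and 279.7, 97.7 and 190.3 FPKM in the control base. The spread was widest in the control base, where replicate 2 fell within the MCAGF8 range and replicate 1 was the highest of all libraries. The difference was -0.75 between the vaults (SE 0.35, adjusted p = 0.824) and -0.90 between MCAGF8 vault and control base (SE 0.35, adjusted p = 0.197). Without control base replicate 2 the latter was -1.31 (adjusted p = 0.0127) and was called, in a fit that called 24.5% of all tested genes. Rrm1 and Rrm2, the subunits of ribonucleotide reductase, differed between the vaults by -0.42 (adjusted p = 0.752) and -0.38 (adjusted p = 0.826).

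The G1 cyclins included 2 of the 3 genes with the largest differences at p under 0.05 between the vaults. Ccnd1, on chromosome 7 at 144929931 to 144939925, encodes cyclin D1, which couples growth factor signals to CDK4 and CDK6. Its levels were 112, 109 and 152 FPKM in the control vault, 64.8, 90.6 and 80.4 FPKM in the MCAGF8 vault and 113, 115 and 96.6 FPKM in the control base. Every MCAGF8 vault library was below every library of both control tissues. Ccnd1 differed by -0.65 between the vaults (SE 0.20, adjusted p = 0.380) and by -0.46 between MCAGF8 vault and control base (SE 0.20, adjusted p = 0.238), and neither passed the threshold.

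Ccnd2, on chromosome 6 at 127125162 to 127152193, and Ccnd3, on chromosome 17 at 47505051 to 47599691, encode the other D cyclins. Ccnd2 was at 152, 145 and 154 FPKM in the control vault, 164, 140.1 and 145 FPKM in the MCAGF8 vault and 98.1, 136 and 126 FPKM in the control base. The vaults overlapped at nearly equal means, with a difference of -0.0058 (95% interval -0.40 to 0.38), and all control base libraries were below all vault libraries, by -0.33 against the control vault (adjusted p = 0.501). Ccnd3, the most abundant of the D cyclins, was at 301, 362 and 370.4 FPKM in the control vault, 245, 375 and 246 FPKM in the MCAGF8 vault and 329.9, 187 and 309 FPKM in the control base. MCAGF8 replicate 2 was the highest of all 9 libraries and the other MCAGF8 vault libraries were below the control vault, with a difference of -0.28 (95% interval -0.89 to 0.33).

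Ccne1, on chromosome 7 at 38097984 to 38107534, encodes cyclin E1, the partner of CDK2 at the start of S phase. It measured 41.8, 74.1 and 53.2 FPKM in the control vault, 26.1, 32.7 and 26.3 FPKM in the MCAGF8 vault and 66.0, 31.5 and 54.6 FPKM in the control base. The MCAGF8 vault was below the control vault in all libraries, by a ratio of means of 0.503, and overlapped the control base through base replicate 2 alone. The difference was -0.93 between the vaults (SE 0.30, adjusted p = 0.410) and -0.76 between MCAGF8 vault and control base (SE 0.30, adjusted p = 0.194). The latter was -1.06 (adjusted p = 0.0220) and called without control base replicate 2, in a fit that called 24.5% of all tested genes. Ccne2, encoding cyclin E2, gave -0.69 between the vaults, with 5.01 to 12.6 FPKM in the MCAGF8 vault and 11.2 to 18.7 FPKM in the control vault.

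Cdkn1a, on chromosome 17 at 29090976 to 29100727, encodes the CDK inhibitor p21, a target of p53 that holds cells in G1. Its levels were 42.7, 74.8 and 55.6 FPKM in the control vault, 17.5, 24.6 and 22.4 FPKM in the MCAGF8 vault and 117, 39.6 and 109.5 FPKM in the control base. All MCAGF8 vault libraries were below all libraries of both control tissues, and control base replicate 2 was the lowest of the 6 control libraries. Against the control base, Cdkn1a fell in the MCAGF8 vault by 1.86 on the log2 scale (SE 0.39, adjusted p = 0.0272, limma), with means of 21.5 ± 3.65 and 88.9 ± 42.8 FPKM (SD, n = 3). Without MCAGF8 vault replicate 1 it was not called (-1.73, adjusted p = 0.119), nor was it without moderation (adjusted p = 0.120) or on FPKM without the log. Over 23 alternatives, which leave out FPKM without the log, it was called in 21 and the adjusted p ran from 0.00106 to 0.120. Some of the 23 repeat the main fit at another threshold.

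Against the control vault, Cdkn1a differed in the MCAGF8 vault by -1.36 (SE 0.39, adjusted p = 0.326), which was not called. The SE comes from the spread in all 3 groups, of which the control base varied most. With the libraries of both vaults alone, the same difference had an SE of 0.23 and an adjusted p of 0.0918. With all libraries other than control base replicate 2 the adjusted p was 0.0350, so Cdkn1a was called in both. These fits called 0.93% and 1.47% of all tested genes, in that order, against 0.604% in the fit with all 9 libraries. Between the control tissues, Cdkn1a was higher in the base by 0.50 (95% interval -0.38 to 1.38), and by 1.00 (adjusted p = 0.0620) without control base replicate 2. In that replicate the cartilage sum was the highest of all libraries, and its part in the level of Cdkn1a was not tested.

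Cdkn1b, on chromosome 6 at 134920401 to 134925513, encodes p27, and Cdkn1c, on chromosome 7 at 143458339 to 143461050, encodes p57, an imprinted inhibitor that is abundant in differentiating cartilage. Cdkn1b was at 29.9, 34.3 and 29.4 FPKM in the control vault, 35.7, 37.9 and 35.2 FPKM in the MCAGF8 vault and 28.4, 38.1 and 39.1 FPKM in the control base. The MCAGF8 vault libraries were narrowly above the control vault libraries, with a difference of 0.21 (95% interval -0.17 to 0.60), and the base overlapped both. Cdkn1c was at 1466, 2014 and 2017 FPKM in the control vault, 1273, 1998 and 1204 FPKM in the MCAGF8 vault and 1791, 1049.5 and 1451 FPKM in the control base. The groups overlapped throughout, with a difference of -0.32 between the vaults (95% interval -1.08 to 0.44). By FPKM, Cdkn1c ranked between 51 and 101 among all genes in each library.

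**Figure D3:**
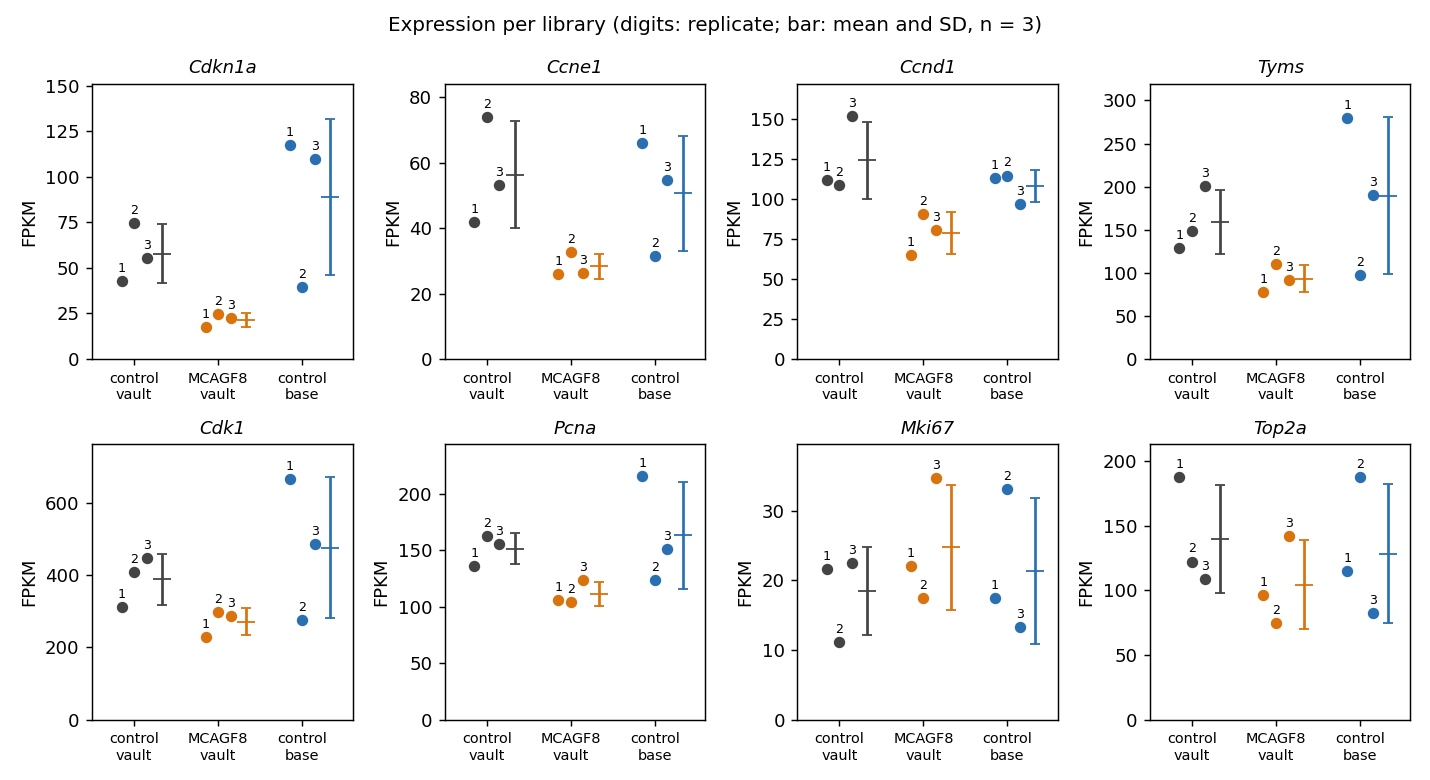
FPKM per library for 8 of the genes, with 1 point per library marked by its replicate number and the mean with SD (n = 3) beside it, for the control vault (grey), the MCAGF8 vault (orange) and the control base (blue). The MCAGF8 vault points of Cdkn1a (17.5 to 24.6) and Ccnd1 (64.8 to 90.6) lie below all control points, while Mki67 and Top2a overlap in all groups.

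Shares within a family do not change when a whole library is rescaled. They can change with a trend by transcript length, which differed between libraries. The longest transcript of Ccnd2 has 6330 bases, against 3740 for Ccnd1 and 3858 for Ccnd3, and the part of length in the shares was not tested. Of the summed FPKM of the 3 D cyclins, Ccnd1 took 19.996% ± 2.41 in the control vault, 15.2% ± 1.69 in the MCAGF8 vault and 21.7% ± 4.06 in the control base (SD, n = 3). All MCAGF8 vault libraries, at 13.7% to 17.04%, were below all control vault libraries, at 17.7% to 22.5%. The share of Ccnd2 was 29.5% ± 5.83 in the MCAGF8 vault and 24.4% ± 2.20 in the control vault, with overlap, and Ccnd3 held 51.7% to 61.9% of the sum in all libraries other than control base replicate 2, where it held 42.8%. Of the summed FPKM of the 3 CDK inhibitors, Cdkn1a took 2.98% ± 0.473 in the control vault, 1.43% ± 0.307 in the MCAGF8 vault and 5.48% ± 1.74 in the control base. The 3 groups did not overlap in the share of Cdkn1a other than at 3.52%, where the highest control vault library and the lowest control base library met. Cdkn1c made up 90.7% to 97.0% of the sum in every library.

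**Figure D4:**
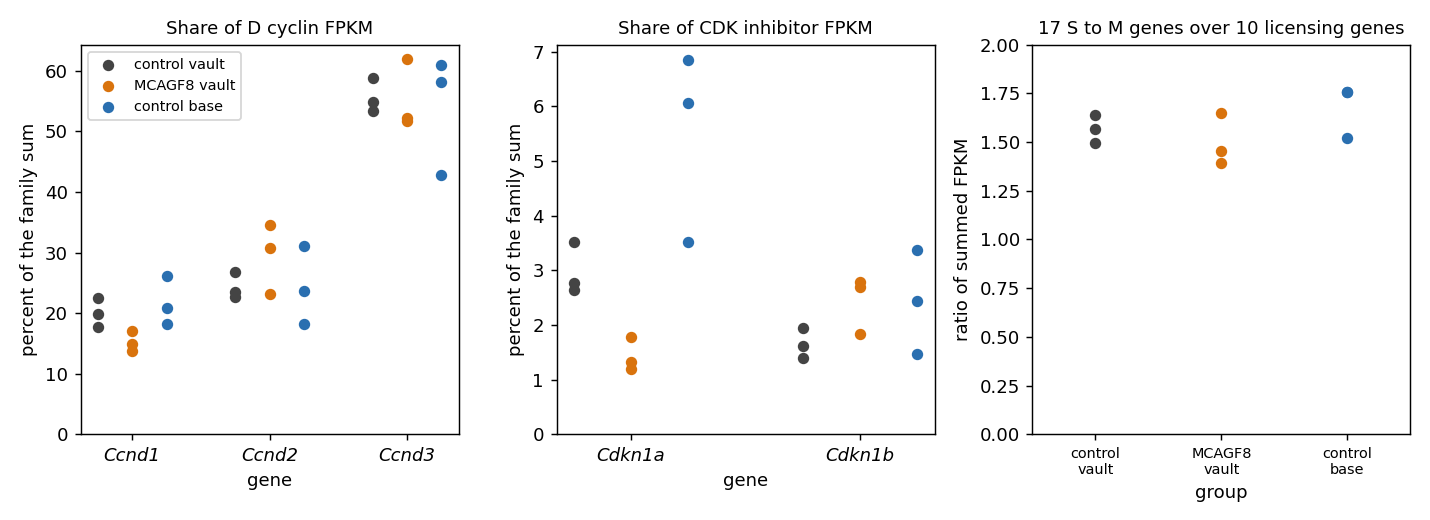
Left and middle, the share in percent of each D cyclin in the summed FPKM of Ccnd1, Ccnd2 and Ccnd3, and of Cdkn1a and Cdkn1b in that of the CDK inhibitors Cdkn1a, Cdkn1b and Cdkn1c, with 1 point per library. Right, the summed FPKM of the 17 S to M and mitotic genes divided by that of the 10 licensing and fork genes. The share of Cdkn1a was at most 1.78% in each MCAGF8 vault library, and the ratio on the right overlapped between the groups.

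The 4 genes of the S to M cyclins and their kinase had lower means in the MCAGF8 vault than in both control tissues. Of all tested genes, 51.3% were lower than in the control vault and 56.3% lower than in the control base. Cdk1, on chromosome 10 at 69335146 to 69352938, encodes the kinase that drives entry into mitosis. It measured 311, 407 and 447 FPKM in the control vault, 228, 298 and 285 FPKM in the MCAGF8 vault and 664, 275 and 486 FPKM in the control base. Each MCAGF8 vault library was below each control vault library, and control base replicate 2 was again the base library within the MCAGF8 range. The difference was -0.51 between the vaults (SE 0.32, adjusted p = 0.969) and -0.73 between MCAGF8 vault and control base (SE 0.32, adjusted p = 0.245). The latter was -1.08 (adjusted p = 0.0185) and called without control base replicate 2, in a fit that called 24.5% of all tested genes. Ccnb1, encoding cyclin B1, was named after its values were seen, at 54.4 ± 4.75 FPKM in the control vault, 40.5 ± 6.27 FPKM in the MCAGF8 vault and 55.2 ± 4.99 FPKM in the control base. Its MCAGF8 vault libraries lay below all 6 control libraries, with differences of -0.42 (adjusted p = 0.681) from the control vault and -0.44 (adjusted p = 0.189) from the control base. Ccna2 and Ccnb2 differed between the vaults by -0.35 and -0.28, with overlapping libraries.

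All 7 genes of mitotic kinases and the spindle checkpoint had lower means in the MCAGF8 vault than in the control vault, against 51.3% of all tested genes. Their median difference was -0.32. Plk1, on chromosome 7 at 122159439 to 122169873, encodes polo-like kinase 1, which acts at centrosomes and kinetochores. Plk1 measured 32.1, 32.5 and 43.1 FPKM in the control vault, 21.9, 37.7 and 27.5 FPKM in the MCAGF8 vault and 26.3, 20.2 and 30.4 FPKM in the control base. The control base lay wholly below the control vault, by -0.47 (SE 0.24, adjusted p = 0.485), and the MCAGF8 vault overlapped both. Aurora kinases Aurka and Aurkb gave -0.33 and -0.10 between the vaults, Bub1, Bub1b and Cdc20 of the checkpoint gave -0.29, -0.37 and -0.16, and Birc5, encoding survivin, gave -0.54. Of these, Bub1b alone did not overlap between the vaults, at 25.6 to 30.8 FPKM in the MCAGF8 vault and 35.3 to 40.3 FPKM in the control vault (adjusted p = 0.768). Of all tested genes, 9.35% were lower in the MCAGF8 vault without overlap.

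The 6 kinesins and chromosome proteins went different ways between the vaults, with 3 lower and 3 higher in mean. Mki67, on chromosome 7 at 135689784 to 135716361, encodes the Ki-67 protein, which coats mitotic chromosomes and serves as a histological mark of dividing cells. It measured 21.6, 11.2 and 22.5 FPKM in the control vault, 22.0, 17.4 and 34.7 FPKM in the MCAGF8 vault and 17.5, 33.1 and 13.3 FPKM in the control base. The groups overlapped completely and the spread within each was wide, with a difference of 0.41 between the vaults (95% interval -0.46 to 1.28). Top2a, on chromosome 11 at 98992943 to 99024189, encodes topoisomerase II alpha, which untangles chromosomes. It was at 188, 122 and 109 FPKM in the control vault, 96.2, 75.0 and 142 FPKM in the MCAGF8 vault and 115, 187 and 82.5 FPKM in the control base. Its groups overlapped as well, with a difference of -0.43 between the vaults (95% interval -1.21 to 0.35).

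Cenpf, on chromosome 1 at 189640606 to 189688086, encodes a large protein of the kinetochore and had the largest difference of the 40 genes between the control tissues. It measured 11.9, 5.04 and 9.496 FPKM in the control vault, 8.27, 5.26 and 25.6 FPKM in the MCAGF8 vault and 16.5, 26.4 and 6.20 FPKM in the control base. The libraries of each group were far apart, and the base differed from the control vault by 0.69 with a 95% interval of -0.67 to 2.05. The motor genes Kif11 and Kif20a gave -0.41 and -0.33 between the vaults and Cenpe gave 0.25. Of the transcription factors, E2f1 was at 31.7 ± 1.13 FPKM in the control vault, 25.4 ± 3.06 FPKM in the MCAGF8 vault and 24.9 ± 5.41 FPKM in the control base, without overlap between the control vault and either of the others, and Foxm1, the G2 activator, differed between the vaults by 0.068 (95% interval -0.49 to 0.62).

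Summed over the 17 genes of S to M cyclins, mitotic kinases, kinesins and chromosome proteins, expression was 1.57 ± 0.0711 times that of the 10 licensing and fork genes in the control vault, 1.498 ± 0.134 times in the MCAGF8 vault and 1.68 ± 0.137 times in the control base. The libraries of all groups overlapped in this ratio.

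Genes with long and with short transcripts followed different libraries. Of the 40 genes, 28 had a longest annotated transcript under 4000 bases, and all 28 had a lower mean in the MCAGF8 vault than in the control vault, with a median difference of -0.33. Of the 12 genes with longer transcripts 7 were lower and 5 higher, with a median of -0.13. Within the MCAGF8 vault, replicate 2 was the highest of the 3 libraries for 20 of the 28 shorter genes and for 3 of the 12 longer ones, and replicate 3 was the highest for 8 of the 12. Within the control base, replicate 2 was the highest for 4 of the 28 and 7 of the 12. Over all tested genes with a known length, the deviation of a library from the gene mean changed by -0.25 to 0.11 on the log2 scale per doubling of length, with control base replicates 1 and 2 at the ends of that range. After a trend with length and GC content was removed from each library, 36 of the 40 genes had a lower mean in the MCAGF8 vault than in the control vault, and between control base and control vault Plk1 (-0.57, adjusted p = 0.0780) and Rrm2 (-0.45, adjusted p = 0.0915) were called, in a fit that called 8.91% of all tested genes.

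**Figure D5:**
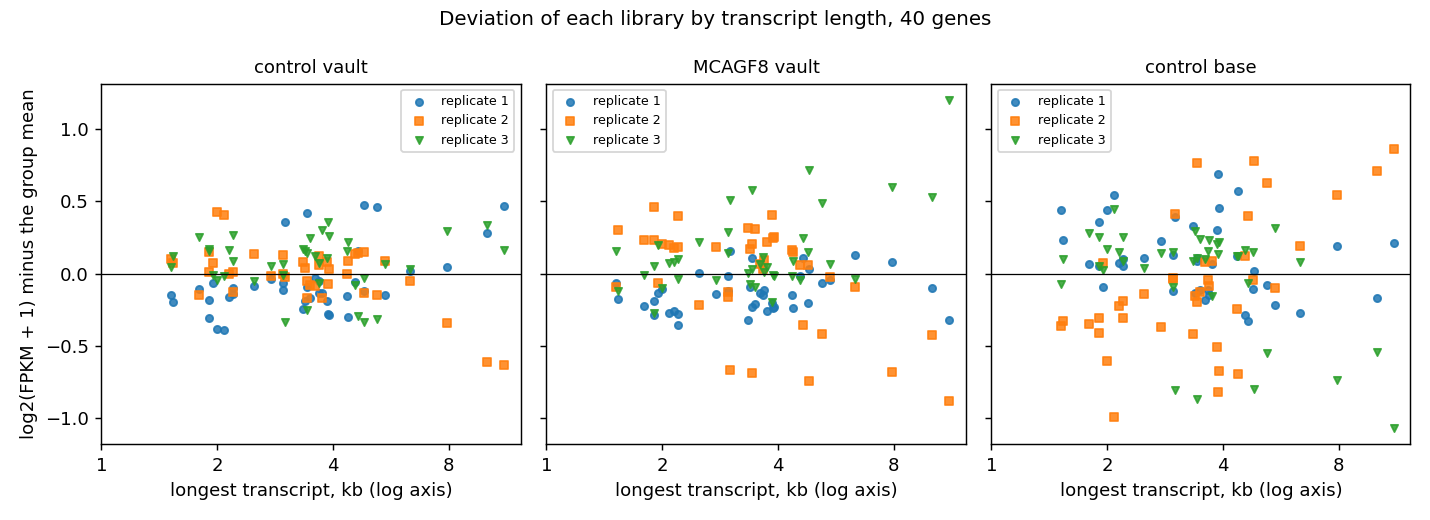
Deviation of each library from its group mean on the scale log2(FPKM + 1), against the length of the longest annotated transcript in kilobases on a log axis, with 1 point per gene and library and a panel for each group. In the MCAGF8 vault replicate 3 (green) lies above and replicate 2 (orange) below 0 for the longest transcripts, among them Mki67 and Cenpf, and in the control base replicate 2 lies above.

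Promoter sequence was read from RefSeq (GRCm38.p6) for windows from 250 bases before to 50 bases after a gene's start. Windows were found by symbol for 30 of the 40 genes, 33 windows in all, since some genes have several starts. Short motifs were searched on both strands. These were the E2F site (TTCCCGC or TTCGCGC or TTGGCGC or TTGCCGC), the cell cycle genes homology region or CHR (TTTGAA or TTCGAA), which MuvB binds, and the CCAAT box (CCAAT), which NF-Y binds. An E2F letter string that ends in CCAA on the opposite strand may share these bases with a CCAAT box. The E2F letters were present in 33.3% of the 33 windows and in 9.57% of all 32851 windows, the CHR letters in 42.4% and 19.2%, and the CCAAT box in 75.8% and 37.4%. Of 12 windows of licensing and nucleotide genes, 8 held E2F letters and 3 held CHR letters, and of 14 windows of genes from S to M cyclins to chromosome proteins, 3 held E2F letters and 11 held CHR letters. The windows of Cdkn1a, Ccne1 and Tyms, which had the largest differences between the vaults, held none of the 3 motifs in these letters. The same was true of the windows of E2f1 and Birc5 and of a window of Ccnd3, while Ccne2 and Ccnd1 had no window.

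The 250 bases before the start are printed for 4 genes to show these motifs, 5′ to 3′ on the strand of the gene, with the letters of a motif in capitals. Mcm6 stands for the licensing genes, Cdk1 holds both E2F and CHR letters, and Top2a and Mki67 are mitotic genes with long transcripts. They lie on the minus strand at chr1:128359706-128359955, chr10:69352913-69353162, chr11:99024190-99024439 and chr7:135716380-135716629, in that order.
Mcm6: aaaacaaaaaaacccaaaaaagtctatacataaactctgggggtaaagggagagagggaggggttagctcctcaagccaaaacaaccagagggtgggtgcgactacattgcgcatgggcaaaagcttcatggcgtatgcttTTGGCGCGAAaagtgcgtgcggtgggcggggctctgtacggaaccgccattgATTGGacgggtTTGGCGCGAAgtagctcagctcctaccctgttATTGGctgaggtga
Cdk1: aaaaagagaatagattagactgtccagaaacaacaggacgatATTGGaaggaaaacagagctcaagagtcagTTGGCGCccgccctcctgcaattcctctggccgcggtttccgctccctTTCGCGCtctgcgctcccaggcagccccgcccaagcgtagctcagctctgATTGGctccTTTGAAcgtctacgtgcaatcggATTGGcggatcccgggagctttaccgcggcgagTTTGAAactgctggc
Top2a: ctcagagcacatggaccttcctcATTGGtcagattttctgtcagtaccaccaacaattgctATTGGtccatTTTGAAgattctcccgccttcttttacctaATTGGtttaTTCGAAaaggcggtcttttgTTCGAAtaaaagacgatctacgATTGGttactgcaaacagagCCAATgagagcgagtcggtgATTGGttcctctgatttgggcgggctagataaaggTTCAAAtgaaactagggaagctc
Mki67: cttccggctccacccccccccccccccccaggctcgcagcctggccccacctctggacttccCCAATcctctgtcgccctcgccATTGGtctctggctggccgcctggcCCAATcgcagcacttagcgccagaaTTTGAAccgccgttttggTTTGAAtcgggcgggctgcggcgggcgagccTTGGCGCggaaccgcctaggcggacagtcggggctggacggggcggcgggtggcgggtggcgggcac
In Mcm6 the E2F letters occur at 109 and 46 bases before the start, each overlapping a further E2F string on the other strand. In Cdk1 CHR letters begin 71 and 15 bases before the start and follow ATTGG, the CCAAT box on the other strand. Such matches describe the letters and are not evidence of binding in this tissue.

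A wider set of 116 genes of replication, mitosis and G1 control, none of them among the 40, was read in the same fit, and 114 were tested. Between the vaults, 97 (85.1%) had a lower and 17 a higher mean in the MCAGF8 vault, against 51.3% of all tested genes with a lower mean. Their median difference was -0.26. At an unadjusted p under 0.05 there were 5, all lower, with a background of 6.34%, and 0 were called by limma, with a background of 0.604%. Without moderation 8 were at an unadjusted p under 0.05, with a background of 6.54%, in a fit that called 0 of all tested genes. The lowest p values belonged to Tk1, thymidine kinase of the nucleotide salvage pathway (-0.51, adjusted p = 0.425), Prc1, which bundles microtubules of the central spindle (-0.59, adjusted p = 0.436), and Tpx2, an activator of Aurora A (-0.45, adjusted p = 0.476). Between the control tissues, 74 (64.9%) were lower in the base, against 41.0% of all tested genes. Of the set, 1 was at an unadjusted p under 0.05, with a background of 12.8%, and 4 without moderation, with a background of 12.2%. By either fit 0 were called, with backgrounds of 3.06% and, without moderation, 1.37%. The lowest p values there were for Cdkn2c, a CDK4 and CDK6 inhibitor (-0.54, adjusted p = 0.277), Btg1, an antiproliferative gene (0.38, adjusted p = 0.433), and Dut, the dUTPase (0.61, adjusted p = 0.453). Between MCAGF8 vault and control base, 84 (73.7%) were lower, against 56.3% of all tested genes. At an unadjusted p under 0.05 there were 14 (13 lower and 1 higher), with a background of 19.6%, and 9 without moderation, with a background of 18.1%. By either fit 0 were called, with backgrounds of 8.39% and, without moderation, 4.64%. Dut (-0.90, adjusted p = 0.129) and Mad2l1, the checkpoint protein MAD2 (-0.79, adjusted p = 0.172), had p values among the 3 lowest.

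Some values may include reads of other genes. Pcna shares 99.2% of 781 aligned bases with Pcna-ps2, which was listed at a mean of 122 FPKM, and their sum was 280.2 ± 34.8 FPKM in the control vault and 203 ± 11.4 FPKM in the MCAGF8 vault. Ccnb1 shares 99.2% of 1287 bases with Ccnb1-ps, listed at a mean of 20.03 FPKM, and Ccnd3 shares 96.6% of 417 bases with Ccnd3-ps, listed at a mean of 30.4 FPKM. How reads of such copies were assigned is not stated in the methods, so the levels of these 3 genes are uncertain. Cdc45, Gins2, Kif20a, Ccne2, Ccna2, Mcm7, Ccnd1, Cdc20 and Ccnd3 overlap a protein-coding gene on the opposite strand, and whether strand was used in the counting is not stated, so reads of these partners may be included.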

How the data were processed

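Each library was made from stranded mRNA of a pool of 3 tissue samples and read from a single end. The authors aligned the reads with gSNAP and computed FPKM with Cufflinks, and deposited these FPKM as 1 table. Program versions, genome build and annotation: not given in the sources used here. Groups were compared by ANOVA in the study. No read counts are given, so depth is unknown and precision rests on the SD of 3 pools. The 63 rows repeating an identifier were summed, and 9 genes with the placeholder value in 17 cells were left out. Values were fitted as log2(FPKM + 1), pseudocount 1, with limma 3.58.1 in R 4.3.3 (eBayes with trend, 1 mean per group, 9 libraries, two-sided, Benjamini-Hochberg adjustment over 18714 genes), after tests on simulated data. Ratios are of mean FPKM. Intervals are 95% intervals of that fit. Lengths and positions came from GENCODE M21 (GRCm38). Values in every library are given for called genes, the 3 largest differences per comparison, the D cyclins, the CDK inhibitors, Mki67, Top2a, Cdk1, Mcm2 and Pcna. The 40 genes and all lists were chosen with earlier results of these data known. Tubb3 and Cdt1 were not analysed here, and 1 gene of the wider pathway set is not reported here by name. Tables and plots used Python 3.11.15, pandas 2.3.3, numpy 2.4.6 and matplotlib 3.10.9.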

Additional observations from a re-analysis of the deposited data

How the results depend on the processing

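The alternatives were other pseudocounts, filters and scalings, removal of a trend with length and GC content, the libraries of both groups alone, a replicate block, no moderation, FPKM without the log, other thresholds, another handling of repeated identifiers, and each library left out in turn; counts of lower means and of genes without overlap were added after the data were seen. Between the control tissues the count of called genes of the 40 was 0 as reported. With the length and GC trend removed it was 2, where 8.91% of all tested genes were called. With a library left out it was 0 to 1, the 1 in a fit that called 7.17% of all tested genes. Between the vaults the count was 1 with the libraries of both groups alone (0.93% of all tested genes). At an unadjusted p under 0.05 alone it was 8 (6.34%). With a library left out it was 0 to 1, the 1 in a fit that called 1.47% of all tested genes. The median difference between the vaults was -0.15 when rescaled to a sum of 1000000. Between MCAGF8 vault and control base the count was 3 with quantile normalization, where 10.5% of all tested genes were called. It was 0 without moderation (4.64% of all tested genes), 0 for FPKM without the log (2.83%) and 7 at an unadjusted p under 0.05 alone (19.6%). With a library left out it was 0 to 7, the 7 in a fit that called 24.5% of all tested genes. Rescaling to a sum of 1000000 gave a median difference of 0.072 and 16 genes with a lower mean. Leaving out control base replicate 2 gave each upper end. Leaving out MCAGF8 vault replicate 1 gave the lower end between MCAGF8 vault and control base, while in the other comparisons the lower end was the count as reported. Genes without overlap between the vaults numbered 26 lower without MCAGF8 vault replicate 2 and 22 without control vault replicate 1, against 14. A library left out can only keep or raise this count, and the share over all genes was not computed. Whether replicate numbers pair the samples is not stated. Correlations of same-numbered deviations ran from -0.55 to 0.37 and those of differently numbered ones from -0.48 to 0.56, so they cannot decide it. With a replicate block 19 genes were called between the vaults over all tested genes, against 113, with 0 of the 40. It called 234 and 918 in the comparisons of the control base with the control vault and with the MCAGF8 vault, with 0 and 1 of the 40. With 3 pools per group and unknown depth, small differences in single genes could not be resolved.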
